A study of Homo sapiens with 2 samples.

Results

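The genes described here are 9 intermediate filament genes, VIM and the keratin genes KRT7, KRT8, KRT18, KRT19, KRT20, KRT23, KRT34 and KRT80. They were taken by gene symbol from the authors' deposited table of detected probes, where 11 probes stood for them, among 14894 named genes in all. The study compared 1 single-colour Agilent array of cells transfected with a synthetic miR-204-5p mimic with 1 array of cells transfected with a negative control RNA. Both samples were labelled HCT116, a human colorectal carcinoma line, and RNA was taken 48 h after lipid transfection. The line carries no further alteration in the labels, and the control RNA has no sequence there. With 1 array per group there were no replicates, so no difference below has a replicate error or a test, and each describes these 2 arrays. The epithelial markers CDH1 and CDX2 were low or near background on the control array (values further on), and whether both arrays hold that line cannot be settled from these files.

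Intermediate filaments are rope-like cytoskeletal polymers that give cells mechanical strength. Keratins, the filament proteins of epithelia, assemble only as pairs of a type I and a type II protein, and the pair of KRT8 (type II) and KRT18 (type I) is the basic one of simple epithelia such as the gut lining. Vimentin, a type III protein that polymerises on its own, is typical of mesenchymal cells and is also made by many cultured carcinoma lines, and a shift between keratins and vimentin is a common readout of epithelial and mesenchymal states.

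The transfected microRNA is shown first because it is what distinguished the samples. Its mature sequence, credited to RefSeq on GRCh38.p14 (chr9:70810031-70810052, minus strand), is given with the seed, bases 2 to 8 from the 5′ end, in capitals.
hsa-miR-204-5p: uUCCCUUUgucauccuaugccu
The seed is shared with 1 other mature human microRNA of the RefSeq table, miR-211-5p, so 2 entries carried it. Whether transcripts of the 9 genes hold sites for this seed was not analysed here.

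Promoter windows from 250 bases before to 50 bases after the gene start were at hand for 4 of the 9 genes, KRT8, KRT20, KRT34 and VIM, from RefSeq on GRCh38.p14. The windows of VIM (chr10:17227991-17228290, plus strand) and KRT20 (chr17:40885193-40885492, minus strand) are shown because these genes had the largest and the smallest difference between the arrays among the 9. Capitals mark matches to 3 motifs searched on both strands with no overlap between different motifs in these windows, the TATA box TATAAA, the GC box GGGCGG and the E-box CACCTG.
VIM: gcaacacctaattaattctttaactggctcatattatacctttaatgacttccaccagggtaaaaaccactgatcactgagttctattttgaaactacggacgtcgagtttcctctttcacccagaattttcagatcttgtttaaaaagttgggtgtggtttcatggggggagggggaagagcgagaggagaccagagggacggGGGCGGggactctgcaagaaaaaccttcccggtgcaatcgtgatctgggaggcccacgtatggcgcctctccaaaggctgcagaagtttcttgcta
KRT20: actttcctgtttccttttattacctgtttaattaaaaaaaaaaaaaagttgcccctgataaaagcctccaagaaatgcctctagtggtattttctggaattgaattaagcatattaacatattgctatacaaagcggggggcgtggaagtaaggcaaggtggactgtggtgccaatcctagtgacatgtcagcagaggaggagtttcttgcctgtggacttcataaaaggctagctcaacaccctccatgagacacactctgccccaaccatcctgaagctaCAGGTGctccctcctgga
The VIM window held 1 GC box, a match that 45.0% of 35116 promoter windows had, and 10 CG pairs, with no TATAAA or CACCTG. The KRT20 window held 1 E-box, read as CAGGTG on the strand shown, which 20.6% of all windows had, and 2 CG pairs. Of the other windows, that of KRT34 held 1 TATAAA starting 31 bases before the gene start, which 11.5% of all windows had, and that of KRT8 held none of the 3 motifs. A match is a description of the letters only.

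The mimic array was brighter, with a 75th percentile over its probes of 1364 against 894 on the control array, and every intensity below is scaled to make these equal, in arbitrary units. On that scale the median of 153 negative-control spots was 4.52 on the mimic array, against 4.45 on the control array. Differences are log2 intensity, mimic minus control, and a gene was counted as higher or lower from 2-fold. As technical guides, the difference varied between spots of the same probe with a typical SD of 0.077 (median of 999 probes printed 8 or more times), and the probes of 2514 genes with 2 probes lay a median of 0.48 apart. The deposited mimic values were of more than 1 kind. At 1366 of the 1367 probes marked Down in the authors' deposited table, the raw mimic intensity was the product of the control intensity and the deposited fold (relative tolerance 1e-06), and at 0 of the 18924 probes marked Up. Such probes are called recomputed here, although which number was computed from which is not recorded. At the other probes the deposited fold follows the normalized values and differs from the raw ratio. The highest deposited fold of a Down probe was 0.4999, so these probes are also the ones with the strongest decrease in that table. The Up mark covers all other probes of that table, also lesser decreases such as KRT80 at a fold of 0.939.

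The 9 genes fell on both sides. KRT8 and KRT19 were higher by 2-fold or more with the mimic, VIM, KRT7 and KRT34 were at least 2-fold lower, and KRT18, KRT20, KRT23 and KRT80 lay within 2-fold. Among all 14894 named genes 14.0% were at least 2-fold higher and 14.3% at least 2-fold lower, beside 2 and 3 of the 9 here. The median difference of the 9 was -0.48, that of the 8 keratins 0.20 and that of all genes -0.05. Each of the 3 lower genes rests on a recomputed probe, and neither higher gene does. A recomputed probe has a deposited fold under 0.5, and the scaling takes a further 0.61 log2 off. These 3 genes are thus lower by 2-fold by construction. By the authors' deposited normalized values 4 of the 9 were at least 2-fold higher, KRT8, KRT18, KRT19 and KRT23, and 3 were lower, beside 30.9% and 6.83% of all named genes in the same values. In those values the median of all genes lay at 0.58, and 81.9% of the genes past 2-fold were higher, against 49.4% in the scaling used here. Taken relative to that median, the deposited differences were -6.97 for VIM, -1.77 for KRT34 and -1.65 for KRT7 on the lower side. On the higher side they were 3.70 for KRT19, 3.12 for KRT8, 1.05 for KRT18 and 0.84 for KRT23, so that KRT18 but not KRT23 passed 2-fold. At 1.5-fold 4 of the 9 were higher and 4 lower, beside 23.5% and 24.7% of all named genes, and at 4-fold 2 were higher and 1 was lower, beside 4.14% and 4.55%. Without recomputed probes 2 of 6 were higher and 0 lower, beside 15.0% and 7.62%. With probes outside the table averaged in, 3 of the 9 were higher and 3 lower, beside 14.1% and 16.7%.

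**Figure D1:**
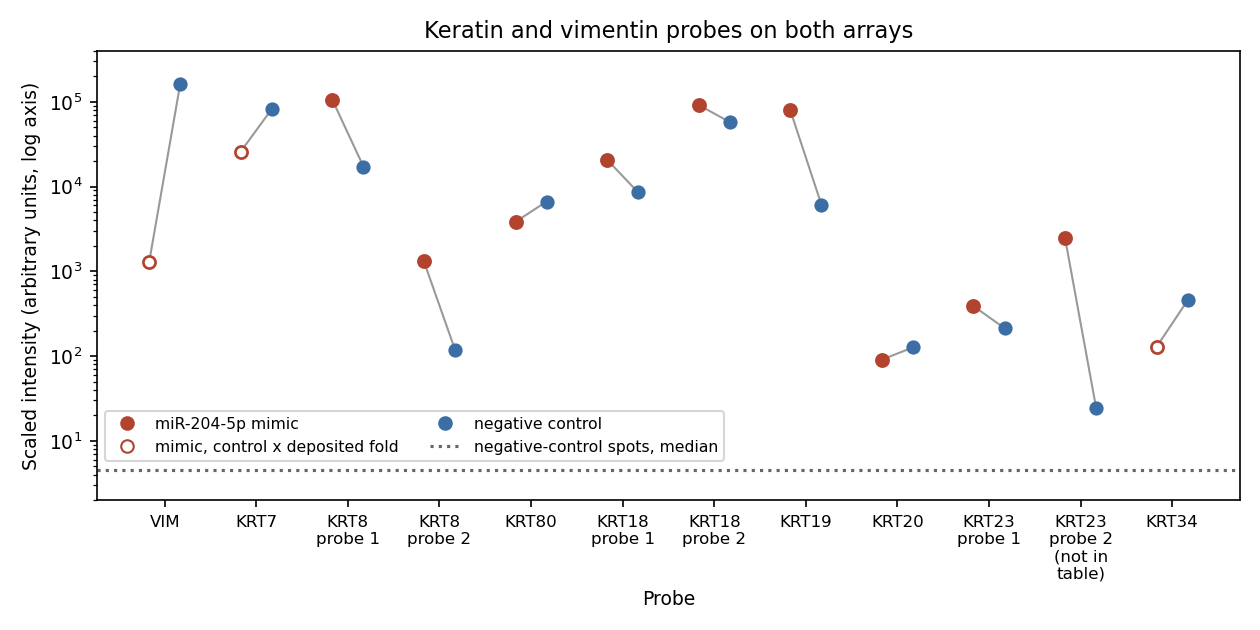
Scaled intensity (log axis, arbitrary units) of the 12 probes of the 9 genes, with the miR-204-5p mimic array on the left and the negative control array on the right of each pair. Open circles are mimic values equal to the control value times the deposited fold. VIM is far lower on the mimic array (1279 against 163211), KRT8 and KRT19 are higher, and the dotted line is the mean of both arrays' negative-control medians.

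Vimentin had the largest difference of the 9. The only VIM probe had a scaled intensity of 1279 on the mimic array, against 163211 on the control array, a difference of -7.00 or 128-fold lower. Only 23 of the 14894 genes lay further below the control, which places VIM 24th from the lowest. The authors' deposited table gives a fold of 0.0120, or 83.6-fold lower, and the raw mimic intensity of 1581 is the raw control intensity of 132103 times that fold. The scaling used here takes another 0.61 log2 off this ratio. On the control array the VIM probe was far above background, at 36709 times the negative-control median. The deposited mimic value was 283 times the negative-control median of the mimic array. Whether 1581 is what the scanner read for VIM cannot be told from these numbers. Nor can it be told whether the VIM probe was above background on the mimic array. The deposited table gives no coordinates for this probe.

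The genes nearest to VIM in level on both arrays were CCN1, a matricellular protein gene, with 1826 on the mimic array against 93018 on the control array, S100P, a calcium-binding protein gene, with 526 against 157319, and IFIT2, an interferon-induced gene, with 711 against 42693. Their distances, measured as Euclidean distance between log2 intensities over the 2 arrays, were 0.96, 1.28 and 2.11. All of them have a recomputed probe.

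Among the type II keratins, KRT8, which forms the simple-epithelial filament with KRT18, was the furthest above the control. One of its probes had 105643 on the mimic array against 17213 on the control array, a difference of 2.62, and the other had 1311 against 119, a difference of 3.46. Both probes were higher on the mimic array, and their differences lay 0.85 apart, against the median gap of 0.48 between probes of a gene. The mean of both probes gave 3.04, or 8.23-fold higher, the 235th highest difference of all genes. Neither probe is recomputed.

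KRT7, the type II keratin of ductal and glandular epithelia that is low or absent in most normal colon epithelium, ran the other way. Its probe, on chromosome 12 (52642590 to 52642649 as the file gives it), had 25834 on the mimic array against 82431 on the control array, a difference of -1.67 or 3.19-fold lower. It was bright on the control array, at 18540 times the median negative control, and its deposited mimic value was at 5712 times. The authors' deposited fold was 0.478, or 2.09-fold lower, and the raw mimic value equals the control value times that fold. KRT80, a type II keratin found in many epithelia, had 3838 on the mimic array against 6663 on the control array from a probe on chromosome 12 (52563485 to 52563544). Its difference of -0.80 did not reach 2-fold, and the deposited normalized values put it at -0.09.

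Among the type I keratins by their table probes, KRT19, which has the shortest chain of the keratins and is typical of simple and ductal epithelia, was the furthest above the control. Its probe, on chromosome 17 from 39679918 to 39679977, had 79450 on the mimic array against 6112 on the control array, a difference of 3.70 or 13.0-fold higher, the 141st highest of all genes. A further table probe with no gene symbol, described in the file as a keratin 19 fragment, had 4047 on the mimic array against 279 on the control array, a difference of 3.86. Whether that probe reads KRT19 was not tested.

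KRT18, the partner of KRT8, differed less. One probe had 20739 on the mimic array against 8513 on the control array, a difference of 1.28, and the other had 91658 against 57595, a difference of 0.67. Their mean of 0.98, or 1.97-fold higher, lay just under the 2-fold line and passed it in 6 of 11 other settings. KRT8 thus exceeded its partner in difference by 2.06 log2, and by between 1.33 and 2.79 over the pairs of a KRT8 and a KRT18 probe, while the probes of KRT18 lay 0.61 apart. Nearest in level to KRT18 on both arrays were, among others, ISCU, an iron-sulphur cluster scaffold gene, and TK1, the thymidine kinase of dividing cells, at distances of 0.032 and 0.12.

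KRT8 and KRT18 lie side by side on chromosome 12 in RefSeq, yet the file's coordinates place the KRT8 probes on chromosomes 8 and 1 and the KRT18 probes on chromosomes 4 and Y. Both genes have many processed pseudogenes, near-identical copies scattered over the genome, and whether these probes tell a gene from its copies was not tested. Table probes named for such copies were higher as well. KRT8P12 had 30327 on the mimic array against 4091 on the control array, a difference of 2.89, and KRT8P44 had 10014 against 1172, a difference of 3.10. KRT18P55 had 15294 against 5245, a difference of 1.54, and KRT18P65 had 14592 against 5534, a difference of 1.40. A probe for KRT8P41, outside the table, was near background at 11.1 on the mimic array against 13.6 on the control array. KRT8P44 was also the second gene in order of nearness to KRT8, at a distance of 0.37, after UNC5B, a netrin receptor gene, at 0.33, and before NHSL3 at 0.44.

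The other type I members were dim or differed little. KRT20, a keratin of differentiated enterocytes and goblet cells that is widely used as a marker of colorectal carcinoma, had 90.9 on the mimic array against 127 on the control array from a probe on chromosome 17 (39032532 to 39032591). Both values were low, at 20.1 and 28.5 times the negative-control median, and the difference of -0.48 turned to 0.13 with the deposited normalized values. KRT34, a hair keratin, had 129 on the mimic array against 458 on the control array, a difference of -1.83 or 3.55-fold lower, from a probe on chromosome 17 (39534018 to 39534077). It was the only member printed 10 times on the array. Its raw intensities ran from 140 to 177 with a median of 163 on the mimic array, against 356 to 393 with a median of 372 on the control array. The spots of the arrays did not overlap, but they are copies of 1 probe. A Down probe such as this one has a deposited fold under 0.5 by construction. The SD of the difference over these 10 spots was 0.099, which is a spread within 1 pair of hybridisations. All 10 mimic spots lacked the digit pattern described next, and the deposited fold was 0.439, or 2.28-fold lower.

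KRT23, a type I keratin known to be induced by sodium butyrate in pancreatic cancer cells, gave values that depend on the probe. The table probe, on chromosome 17 from 39081720 to 39081779, had 389 on the mimic array against 213 on the control array, a difference of 0.87 or 1.83-fold higher. A second probe, matched to KRT23 by its transcript accession and outside the authors' table, had 2458 on the mimic array against 24.2 on the control array, a difference of 6.67. Both probes were higher on the mimic array, but by very different amounts. On the control array the second probe was at 5.44 times the negative-control median, below the 10 times taken here as detected, so that the value of 6.67 is measured against a low level.

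The spots of the 9 genes separate by how their mimic values were written. For all 9 spots of probes that are not recomputed, the mimic value was 1.2 times a number of 7 significant digits, and for 0 of the 12 spots of recomputed probes, whereas all control values had 7 significant digits as they stood. A factor common to a whole array is removed by the scaling, but recomputed probes do not carry it in the same form. With the recomputed probes left at their raw ratio, a setting chosen after the data were examined, VIM was at -6.38, KRT7 at -1.06 and KRT34 at -1.22, all still past 2-fold. A Down probe has a deposited fold under 0.5, so it passes 2-fold at its raw ratio by construction. The scaling takes a further 0.61 log2 off the ratio of a recomputed probe, which thus passes by construction there too.

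**Figure D2:**
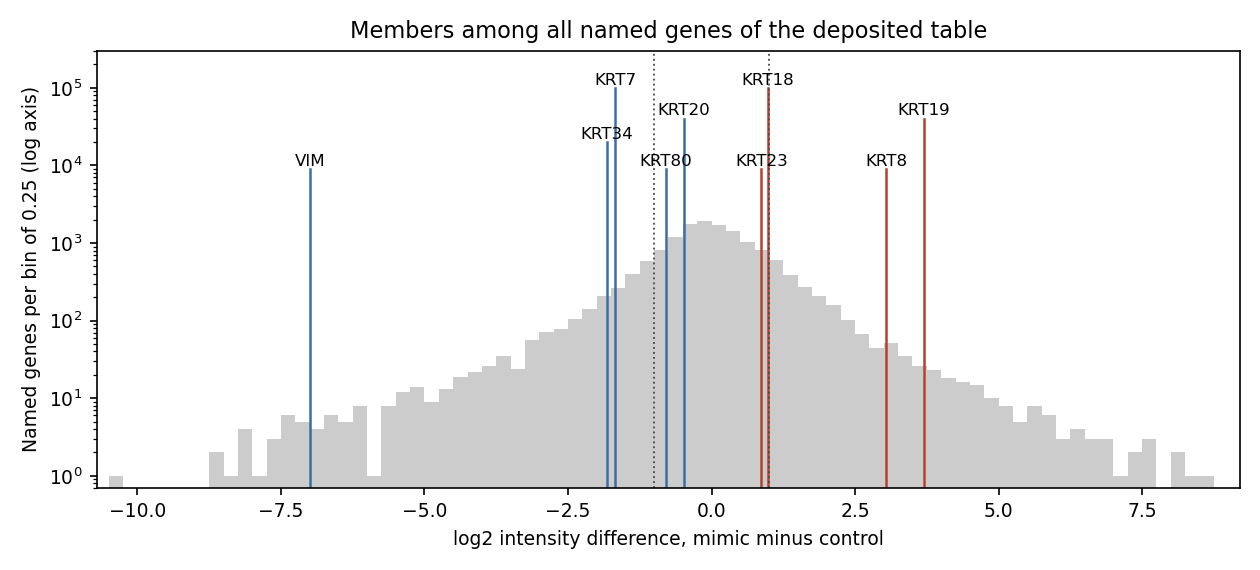
Number of named genes (log axis) by log2 intensity difference, mimic minus control, in bins of 0.25, with the 9 genes as vertical lines and 2-fold as dotted lines. VIM at -7.00 lies in the far lower tail, KRT19 at 3.70 and KRT8 at 3.04 in the upper tail, and KRT18 at 0.98 on the 2-fold line.

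Of the other keratins 23 were measured, which here and below means present in the authors' table. Most of these lay within 2-fold, as did 71.7% of all named genes. Of 24 other type I keratins listed, 10 were in the authors' table, and of these 1 was at least 2-fold higher, 1 lower and 8 within 2-fold, with a median difference of -0.11. KRT15, a keratin of basal epithelial cells, had 5496 on the mimic array against 758 on the control array, 7.25-fold higher. KRT37, a hair keratin that was dim on both arrays, was 2.15-fold lower. KRT27, of the inner root sheath of the hair, had 26.3 on the mimic array against 52.5 on the control array, just within 2-fold, and the hair keratin gene KRT33A differed by -0.87.

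Of 23 other type II keratins listed, 13 were in the table, of which 1 was higher, 4 were lower and 8 lay within 2-fold, at a median of -0.15. The 4 of 13 that were lower stand beside 14.3% of all named genes, and hair keratins led them. KRT81 had 18485 on the mimic array against 144466 on the control array, 7.82-fold lower, and KRT86 had 542 against 4705, 8.69-fold lower. KRT83 averaged 7.48-fold lower, but its probes disagreed in size, at -5.50 from the recomputed probe and -0.31 from the other. These 3 genes are closely related in sequence, each has a recomputed probe, and whether their probes tell them apart was not tested. KRT6A, a keratin of stressed epidermis, was 2.68-fold higher at 178 on the mimic array against 66.3 on the control array.

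Of 14 filament proteins of other classes listed, 8 were in the authors' table, at a median of 0.44. By 2-fold or more 2 were higher and 1 was lower, beside 14.0% and 14.3% of all named genes. DES (desmin), outside that table, was bright on both arrays, at 1758 on the mimic array against 2150 on the control array. PRPH, which encodes peripherin, a type III protein of neurons, had 4420 on the mimic array against 257 on the control array, 17.2-fold higher. The nuclear lamina gene LMNB2 was 2.28-fold higher, SYNM, a partner of vimentin and desmin filaments, was 2.74-fold lower, and NES (nestin) averaged 1.84-fold higher over probes that differed in size, at 1.77 and -0.01.

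A few genes of the junctions that anchor keratin filaments were far higher with the mimic, but most lay within 2-fold. Of 20 plakin and desmosome genes 15 were measured. By 2-fold or more 4 were higher and 1 was lower, beside 14.0% and 14.3% of all named genes, at a median of 0.23. JUP, plakoglobin of the desmosomal plaque, had 8011 on the mimic array against 445 on the control array, a difference of 4.17, and PPL (periplakin) had 1389 against 112, 12.4-fold higher. PKP3 (plakophilin 3) was 2.35-fold higher, and DST (dystonin) averaged 2.45-fold lower with a recomputed probe among its 3. Counted over all probes of the 20 after the data were examined, 6 were higher and 1 lower, at a median of 0.23. The shares over all probes of all named genes were 14.1% and 16.7%. Probes at 10 or more times the negative-control median on an array gave 6 of 17 higher, 1 lower and a median of 0.60. Outside the authors' table, EPPK1 had 1977 on the mimic array against 22.4 on the control array. The brighter DSC3 probe had 379 against 4.40. All 7 hemidesmosome genes were measured, with 2 higher, 1 lower and a median of 0.72, led by the laminin chain gene LAMA3 with 3036 on the mimic array against 176 on the control array, 17.3-fold higher. The summed intensity of the hemidesmosome genes ran the other way, at 138715 on the mimic array against 169229 on the control array. Most of both sums came from CD151, with 85588 on the mimic array against 119216 on the control array, a difference of -0.48. ITGB4 was 2.47-fold higher and LAMB3 2.06-fold lower.

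Of 18 filament assembly partners, the kinases, chaperones and adaptors that bind or modify keratin or vimentin filaments, 17 were measured. By 2-fold or more 7 were higher and 0 were lower, beside 14.0% and 14.3% of all named genes, at a median of 0.55. FAM83H, which recruits casein kinase 1 to keratin filaments, had 6159 on the mimic array against 130 on the control array, 47.3-fold higher. SFN (14-3-3 sigma) was 3.93-fold higher, the mitotic kinase gene AURKB 3.65-fold and the chaperone gene HSPA8 3.37-fold. Of 23 transcription factors known to act on keratin or vimentin genes 13 were measured, with 4 higher, 6 lower and a median of -0.50. The same shares of all named genes, 14.0% and 14.3%, stand beside them. That balance depends on the authors' detection filter. Over all probes of the 23 factors, a count made after the data were examined, 9 were higher and 7 lower, at a median of 0.06. Over all probes of all named genes the shares were 14.1% higher and 16.7% lower. Factor probes at 10 or more times the negative-control median on an array gave 10 of 19 higher, 7 lower and a median of 1.097. Among factors outside the table, the epithelial factor gene ELF3 had 2192 on the mimic array against 4.30 on the control array, and OVOL1 had 2810 against 9.82. In the other direction, the brighter ZEB2 probe had 28.6 against 625. The GRHL2 probes disagreed, at -0.50 from the table probe and 6.18 from the probe outside the table. ZEB1, a repressor of epithelial genes, had 784 on the mimic array against 18685 on the control array, 23.8-fold lower, and SNAI2 was 13.3-fold lower. ETS1 was 7.53-fold and JUN 7.47-fold lower, and all of these 4 have a recomputed probe.

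**Figure D3:**
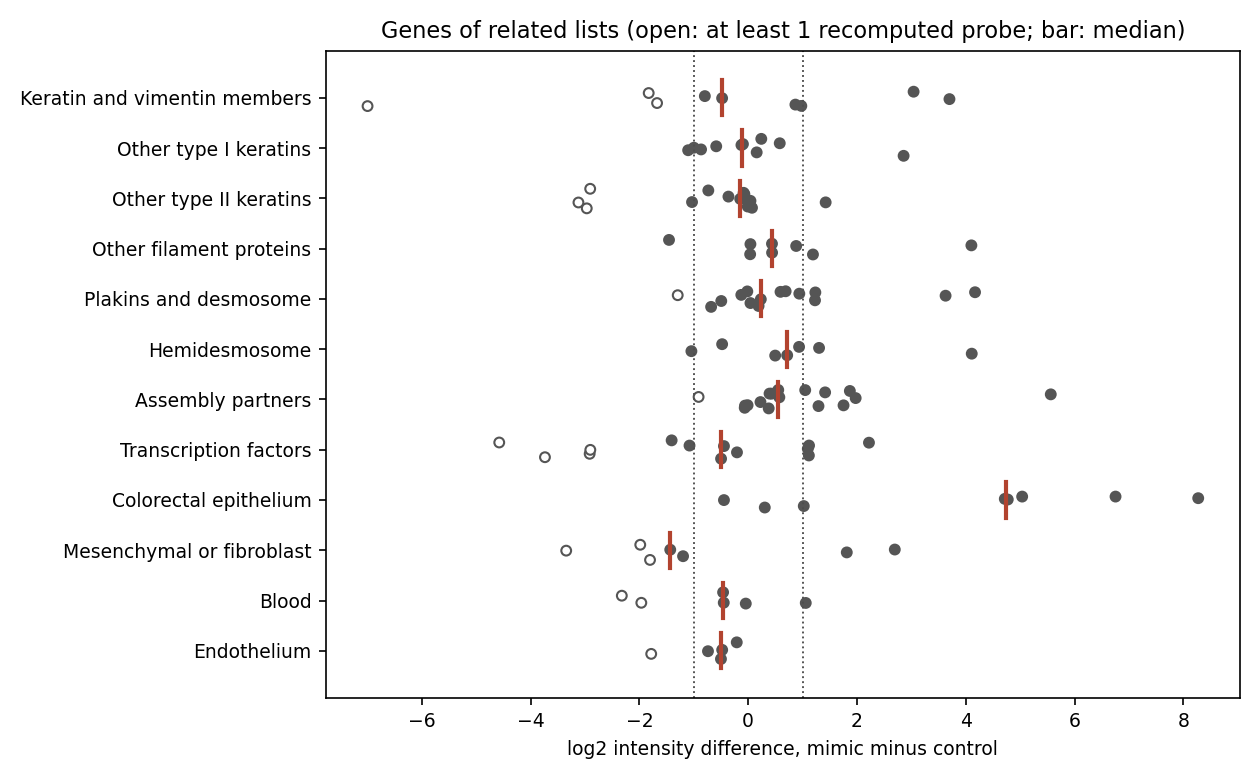
Log2 intensity difference, mimic minus control, of each measured gene (points) in the 9 described genes and in 11 related lists, with the list median as a red bar and 2-fold as dotted lines. Open points have at least 1 recomputed probe. The colorectal epithelium list has a median of 4.74, and the lists of other keratins have medians of -0.11 and -0.15.

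Markers of epithelium and of other cell types differed between the arrays too, and the labelled cell type was checked with them. Of 12 markers of colorectal epithelium 8 were measured, 6 higher by 2-fold or more with the mimic and 0 lower, with a median of 4.74. Among all named genes 14.0% were higher and 14.3% lower. The summed scaled intensity of the markers was 132364 on the mimic array, against 15475 on the control array. CDH1 (E-cadherin) had 11324 on the mimic array against 36.6 on the control array, and EPCAM had 65569 against 608, while ST14 was 32.8-fold and CLDN3 27.3-fold higher. Relative to the negative-control median, CDH1 was at 2504 times on the mimic array against 8.24 times on the control array, and EPCAM at 14498 times against 137 times. The probe of the intestinal factor CDX2, outside the authors' table, was at 278 times on the mimic array against 1.16 times on the control array. E-cadherin and EpCAM are known to be made by HCT116 cells. The control array thus had little signal for CDH1 and CDX2. The brush border gene VIL1 was near background on both arrays, at 1.31 and 1.21 times on the mimic and the control array. Other markers of the list stayed within 2-fold, CDX1 at -0.44, LGALS4 at 0.31 and GPA33, outside the authors' table, at -0.79. The part of these markers in the keratin and vimentin differences was not tested.

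Of 14 mesenchymal or fibroblast markers 7 were measured, 2 higher by 2-fold or more and 5 lower, at a median of -1.43. Beside these counts and those below stand 14.0% higher and 14.3% lower among all named genes. The summed intensity of the mesenchymal markers was 1648 on the mimic array, against 6357 on the control array. COL5A1 was 10.2-fold lower and PDGFRB 3.95-fold lower, both from recomputed probes, while the fibrillar collagen gene COL1A1 was 6.48-fold and ACTA2 3.51-fold higher. Of 7 blood markers 6 were measured, with 1 higher and 2 lower and summed intensities of 5902 and 4754 on the mimic and the control array. Among them CSF1R was 5.00-fold lower and CD68 (432 on the mimic array against 1684 on the control array) also lower, both from recomputed probes. CD79A was 2.08-fold higher and made up most of the sums, CD3E differed by -0.46, and PTPRC, which defines leukocytes, was at 105 on the mimic array against 143 on the control array. Of 7 endothelial markers 5 were measured, with 0 higher and 1 lower and summed intensities of 667 and 1017 on the mimic and the control array. ENG was 3.44-fold lower from a recomputed probe, EMCN differed by -0.74 and VWF by -0.48, and CDH5 was at 162 on the mimic array against 229 on the control array. PECAM1 was outside the authors' table, with its probes between 4.52 and 10.9 on the mimic array and between 5.42 and 222 on the control array. In a bulk sample, fewer cells of a type and less RNA per cell cannot be told apart.

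**Figure D4:**
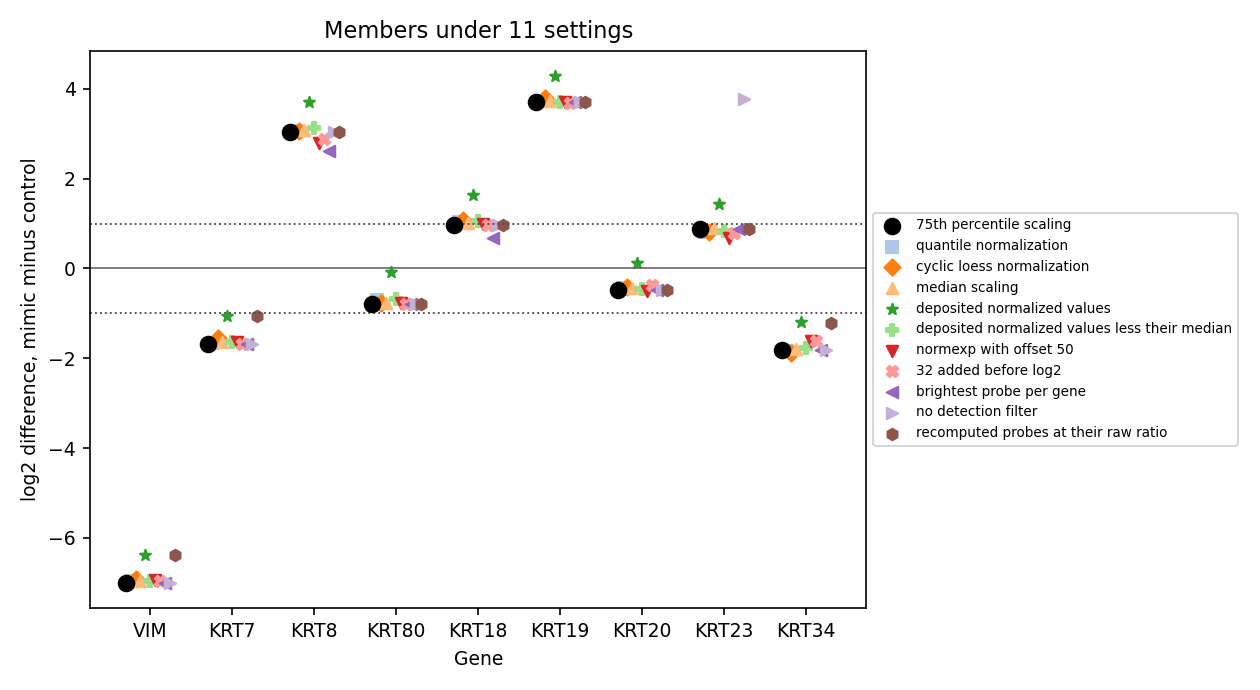
Log2 difference, mimic minus control, of each of the 9 genes under 11 settings, with the reported setting in black and 2-fold as dotted lines. VIM, KRT7, KRT34, KRT8 and KRT19 stay past 2-fold in all settings drawn, KRT18 straddles the line, and KRT23 moves to 3.77 once its second probe is averaged in. VIM, KRT7 and KRT34 pass by construction in the reported setting, with the deposited normalized values and with recomputed probes at their raw ratio.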

How the data were processed

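Cy3-labelled cRNA was hybridised to single-colour Agilent arrays, per the labels' protocols, and the submitters' processing notes name Agilent Feature Extraction 9.1. Per array, the authors deposited 44495 spots with their linear intensity, not normalized between arrays. The authors' deposited table holds, for 20291 probes, raw intensity, normalized intensity in log2 and the mimic over control ratio as a fold, per the file headers, which limit it to probes detected in 5 of 5 samples. Neither the normalization method nor the build of the probe coordinates was given in the sources used here. The series value table was not used beyond its unit.

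Spots of a probe were averaged as log2 intensity, each array was scaled to the 75th percentile of its 34127 non-control probes, and table probes of a gene were averaged. Names came from RefSeq on GRCh38.p14 through Entrez identifiers (17578 probes), accessions (23) or the file's symbol (695), and 1995 probes stayed unnamed. With 1 array per group there was no test. The members, lists, thresholds and the setting without recomputed probes were chosen with earlier results of these data known. Named genes were the 9 members, the 4 largest absolute differences of each list, defining cell type markers, and the 3 genes nearest to VIM, KRT8 and KRT18, of which some are not reported here. Gene copies, VIL1, CDX1, CDX2, LGALS4, GPA33, CD151, DES, DSC3, EPPK1, further probes and keratins outside the table were named after their values were seen. Alternatives used limma 3.58.1 in R 4.3.3, and scaling was tested on simulated data. The number of arrays limits the precision.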

Additional observations from a re-analysis of the deposited data

Results flagged for a closer look

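The KRT23 probe outside the authors' table carried a signal that the comparison of genes did not use. It read 2458 after scaling on the mimic array, against 24.2 on the control array, a difference of 6.67 against a control level of 5.44 times the negative-control median, while the table probe of the same gene gave 0.87. The probe is a single spot on each array and its mimic value had the digit pattern of values that are not recomputed. No cause was tested.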

How the results depend on the processing

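With 1 array per group nothing could be left out, and no paired analysis was possible because each group has a single sample. VIM stayed lower in 10 of 10 other settings, between -7.00 and -6.38, with -6.38 both by the deposited normalized values and with recomputed probes at their raw ratio. Without recomputed probes VIM, KRT7 and KRT34 have no value, so the count of lower members is 0 by construction and the median is 0.92 both for the remaining members and for the remaining keratins. The share of all genes lower was then 7.62%. By the deposited normalized values 4 members were higher (30.9% of all genes), the median of all 9 was 0.13 and that of the keratins 0.78. At 1.5-fold 4 members were higher and 4 lower, beside 23.5% and 24.7% of all genes. At 4-fold 2 were higher and 1 was lower, beside 4.14% and 4.55%. KRT8 and KRT19 passed 2-fold in 11 of 11 other settings and KRT7 and KRT34 in 10 of 10. As Down probes have a deposited fold under 0.5, VIM, KRT7 and KRT34 pass by construction with the deposited values and at the raw ratio. The reported scaling takes a further 0.61 log2 off that ratio, so they pass by construction there as well. KRT18 ranged from 0.67 with its brightest probe to 1.63 with the deposited values, KRT23 from 0.68 with normexp to 3.77 with no detection filter, where it passed KRT19 at 3.70, KRT20 from -0.51 to 0.13 and KRT80 from -0.80 to -0.09. No value could be checked against replicates, and differences at probes near the negative-control level, such as the second KRT23 probe, are measured against a low level.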

Other observations

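Several keratins outside the authors' table differed between the arrays, with a low intensity on at least 1 of them. These were named after their values were seen, and no flag of detection was at hand for them. KRT222, a member of the type I family, had 448 on the mimic array against 43.8 on the control array. KRT13, a keratin of mucosal epithelia, had 100.5 on the mimic array against 28.6 on the control array. In the other direction, the epidermal keratins KRT79, KRT17 and KRT14 had 10.1, 9.07 and 5.06 on the mimic array, against 116, 65.5 and 49.2 on the control array. KRTCAP3, a keratinocyte-associated protein gene, had 1601 on the mimic array against 27.1 on the control array.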
